A study of Mus musculus with 20 samples.

Results

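The proteasome genes of mouse heart were examined as 48 members, chosen by symbol: every gene named Psm followed by a letter from a to g and a number, with at least 0.5 FPKM in at least 5 of 20 libraries. FPKM is the number of sequenced fragments of a gene relative to the length of its transcript and to the fragments of the whole library. The deposited tables list 25052 genes, 12775 passed the same minimum and were tested, and all 48 symbols that match the rule were among them. Psma8 is the member nearest to the minimum, with a median of 0.545 FPKM, and the other 47 reached it in all 20 libraries.

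RNA came from the left ventricle of 20 male mice, with 5 mice in each combination of genotype and diet. iKO mice were homozygous for floxed ACC2 and carried MerCreMer, a Cre recombinase that tamoxifen activates. ACC2, the product of Acacb, makes malonyl-CoA, which restrains the entry of fatty acids into mitochondria. The mice called WT were ACC2-floxed littermates without the Cre, so that floxed alleles were shared by all 4 groups. Both genotypes were likewise injected with tamoxifen at 8 weeks of age, at 20 mg/kg over 5 days. Feeding on chow or on the high-fat diet D12492 of Research Diets (HFD) lasted 16 weeks and started 4 weeks after tamoxifen. The promoter that drives MerCreMer is not given in the labels, and no mice with the Cre and unfloxed Acacb were included, so loss of ACC2 and presence of the Cre cannot be told apart.

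The proteasome is the protease that degrades most ubiquitin-tagged proteins of the cell. Its barrel, the 20S core, is built of outer alpha rings (Psma genes) and inner beta rings (Psmb genes) that hold the cutting sites, and the 19S cap on its end recognises tagged proteins, unfolds them with a ring of ATPases (Psmc genes) and removes the tag with non-ATPase subunits (Psmd genes). In the immunoproteasome, which interferon induces and leukocytes hold constitutively, the beta subunits Psmb8, Psmb9 and Psmb10 replace Psmb5, Psmb6 and Psmb7 and yield peptides suited to display on MHC class I. Heart muscle depends on the proteasome for turnover of contractile proteins, and the transcription factor NRF1 (Nfe2l1) is known to raise the proteasome genes together when the enzyme is inhibited.

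Across the whole series, the reads assigned to genes were estimated at 12.5 M to 31.9 M per library, from the steps between low FPKM values, and this depth limits the genes with low values. Acacb checked the genotype labels, at 34.9 to 41.9 FPKM in 10 WT libraries and 8.37 to 11.9 in 10 iKO libraries. All 8 cardiomyocyte markers were high in every library, from 60.2 FPKM (Ryr2) upward. The adipocyte markers Adipoq, Plin1 and Lep lay at or below 0.53 FPKM, and Cfd reached 2.55 FPKM. Libraries RT1 (WT, chow) and RT4 (iKO, chow) stood apart by the atrial genes Myl7 and Sln. They also had the highest sums of the 4 adipocyte markers, at 3.21 and 2.5 FPKM. The deposited FPKM summed to 780800 to 874100 per library, and transcripts of the mitochondrial genome took 33% ± 0.4 of this sum in the WT chow group, 32% ± 1.83 in iKO chow, 35.1% ± 0.879 in WT HFD and 35.1% ± 0.521 in iKO HFD (SD, n = 5). Values are also given after median-of-ratios scaling, which divides each library by the median ratio of its genes to their mean over libraries; the 20 divisors ran from 0.896 to 1.14.

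The promoters of 5 members are shown because the results turn on these genes: Psmb5 and Psmb8 are a constitutive subunit and its immunoproteasome replacement, Psmb9 and Psme1 are interferon-inducible, and Psmc1 was among the subunits that differed most between diets. Each line holds 300 bases of the RefSeq promoter table on GRCm38.p6, 250 before and 50 after the start, 5′ to 3′ along the gene. Capitals mark matches on either strand to 4 motifs that were searched: the antioxidant response element TGACNNNGC, the interferon-stimulated response element (TTTC, any 2 bases, TTTC), the gamma-activated site TTCNNNGAA and the CCAAT box.
Psmb5 (chr14:54617946-54618245, minus strand): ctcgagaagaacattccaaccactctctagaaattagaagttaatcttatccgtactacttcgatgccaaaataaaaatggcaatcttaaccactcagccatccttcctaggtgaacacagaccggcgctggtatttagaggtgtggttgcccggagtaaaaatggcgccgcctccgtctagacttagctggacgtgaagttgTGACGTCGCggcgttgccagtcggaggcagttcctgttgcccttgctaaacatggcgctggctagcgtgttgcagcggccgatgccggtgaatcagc
Psmb8 (chr17:34197945-34198244, plus strand): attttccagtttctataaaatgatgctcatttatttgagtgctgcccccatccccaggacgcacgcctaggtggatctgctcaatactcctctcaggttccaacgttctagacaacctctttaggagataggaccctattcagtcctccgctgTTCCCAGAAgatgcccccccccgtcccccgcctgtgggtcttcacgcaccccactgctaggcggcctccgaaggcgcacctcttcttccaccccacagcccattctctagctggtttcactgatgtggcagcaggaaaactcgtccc
Psmb9 (chr17:34187281-34187580, minus strand): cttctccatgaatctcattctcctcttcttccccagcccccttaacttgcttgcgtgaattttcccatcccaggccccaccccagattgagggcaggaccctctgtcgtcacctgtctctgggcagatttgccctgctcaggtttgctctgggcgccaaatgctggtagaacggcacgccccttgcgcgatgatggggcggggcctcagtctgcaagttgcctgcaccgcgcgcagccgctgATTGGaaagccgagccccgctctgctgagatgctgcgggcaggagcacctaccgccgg
Psmc1 (chr12:100109952-100110251, plus strand): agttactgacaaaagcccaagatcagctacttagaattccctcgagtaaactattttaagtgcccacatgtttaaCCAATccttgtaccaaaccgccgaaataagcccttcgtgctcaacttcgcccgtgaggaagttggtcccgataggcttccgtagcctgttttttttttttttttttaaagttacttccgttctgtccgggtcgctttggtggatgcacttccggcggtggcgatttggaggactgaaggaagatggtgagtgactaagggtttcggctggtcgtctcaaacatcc
Psme1 (chr14:55578244-55578543, plus strand): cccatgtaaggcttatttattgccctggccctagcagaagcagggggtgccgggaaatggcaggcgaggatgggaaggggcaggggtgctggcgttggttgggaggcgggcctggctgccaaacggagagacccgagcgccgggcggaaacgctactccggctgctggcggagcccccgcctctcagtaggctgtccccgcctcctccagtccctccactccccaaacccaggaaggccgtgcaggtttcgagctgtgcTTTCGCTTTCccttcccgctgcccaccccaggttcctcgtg

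The window of Psmb5 held the antioxidant response element, that of Psmb8 the gamma-activated site, those of Psmb9 and Psmc1 a CCAAT box, and that of Psme1 the interferon-stimulated response element. The table held promoters for 40 of the 48 members. The antioxidant response element was in 6 of them, or 15%, against 14% of 27025 genes in the table. The interferon-stimulated element was in 5, or 12.5%, against 3.99% (Psmb3, Psmd4, Psmd9, Psme1 and Psmg4). The gamma-activated site was in 3, or 7.5%, against 9.55%, and the CCAAT box in 13, or 32.5%, against 41.1%. A match describes letters in a window and does not show that a factor binds there.

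Most proteasome genes were strongly expressed in the ventricle. The values are of bulk tissue, in which fewer cells of a type and less RNA per cell cannot be told apart. Psmb6, the beta subunit with the caspase-like site, led with a median of 94.4 FPKM over the 20 libraries, at percentile 95.7 of the genes tested. The 7 constitutive beta subunits lay within a narrow band, from 63.1 FPKM for Psmb2 to 94.4 for Psmb6, a ratio of 1.5 between the highest and the lowest median. The 7 alpha subunits ran from 37.1 FPKM (Psma5) to 86.4 (Psma6), a ratio of 2.33. In the 19S cap, the 6 ATPases ran from 31 FPKM (Psmc4) to 85.8 (Psmc3), and the 11 non-ATPase subunits from 25.3 (Psmd11) to 59.9 (Psmd2). The ATPases, each present once in its ring, had median transcript levels per length up to 2.76 times apart.

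The remaining members were expressed at lower levels, apart from some activators. The immunoproteasome subunits had medians of 3.56 FPKM (Psmb9), 7.75 (Psmb8) and 23.3 (Psmb10). Chaperones that assemble the 19S cap ran from 4.24 FPKM (Psmd9) to 5.88 (Psmd10), and chaperones that assemble the 20S core from 5.12 (Psmg3) to 15.6 (Psmg2). Psmf1, the inhibitor PI31, had a median of 5.58 FPKM. The activators that can replace the 19S cap spanned a wide range, up to 69.7 FPKM for Psme1, which with Psme2 forms the interferon-inducible PA28 cap. At the low end was Psme2b, a near-identical copy of Psme2, at 1.66 FPKM, and reads may have been split between both copies. Psma8, the alpha subunit of the testis proteasome, was the least abundant member. Psmb11 of the thymus proteasome was not analysed here.

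**Figure D1:**
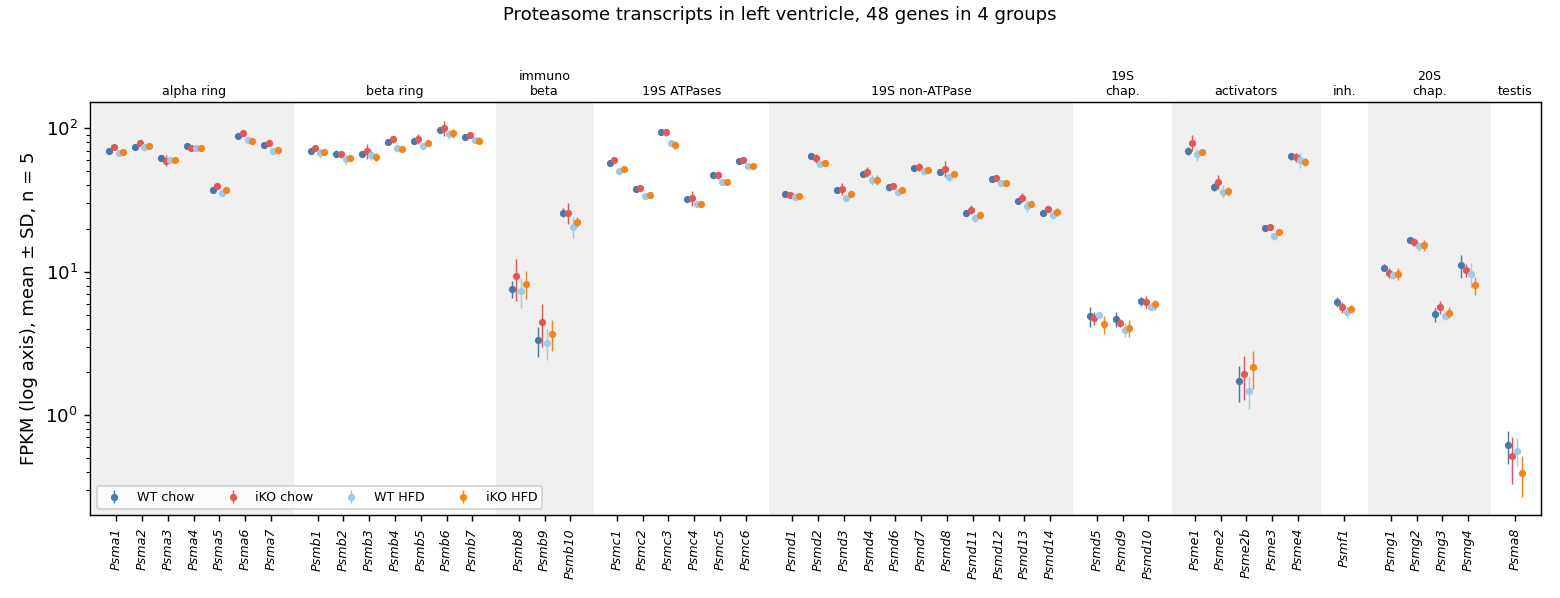
Level of each of the 48 members in FPKM on a log axis, ordered by the part of the proteasome the member belongs to, with a point at the mean of each genotype and diet group and a bar for the SD (n = 5). The constitutive beta subunits lie in a band from 63.1 (Psmb2) to 94.4 FPKM (Psmb6), and the immunoproteasome subunits Psmb9 and Psmb8 lie well below it.

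The core genes varied little from mouse to mouse, and the immunoproteasome subunits varied more. The coefficient of variation, the SD over the 20 libraries in percent of the mean, had a median of 7.71% over the 48 members and 12.5% over all genes tested. Level moved with this gap: 35 members and 1993 tested genes had a mean between 20 and 120 FPKM, and their medians were 7.04% and 8.13%. The lowest values were those of Psmd1, the scaffold of the cap, at 3.46% and of Psma4 at 3.66%. The immunoproteasome subunits reached 15.1% (Psmb10), 24.6% (Psmb8) and 29.2% (Psmb9). Psme2b (31%) and Psma8 (30.9%) were as variable, at levels where few reads stand behind a value. After median-of-ratios scaling the medians were 6.26% over the members and 11.3% over all genes tested.

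No proteasome gene passed the test between iKO and WT, on either diet. Among chow-fed mice 0 of 48 members differed between iKO and WT, against 1.06% of all genes tested (limma on log2(FPKM + 1), Benjamini-Hochberg over 12775 genes, adjusted p below 0.05), and 3 members had an unadjusted p below 0.05, as did 13.5% of all genes. In the HFD-fed mice 0 of 48 differed, against 0.172% of all genes, with 1 member and 15.2% of all genes below 0.05 unadjusted. Pooled over both diets the count was again 0 of 48, against 5.17% of all genes, with 2 members and 25.1% of all genes below 0.05 unadjusted. After median-of-ratios scaling the count was also 0 in each, against 1.16% of all genes on chow, 0.196% on HFD and 3.15% pooled, and 6, 5 and 11 members had an unadjusted p below 0.05, beside 11.1%, 11.8% and 17.8% of all genes.

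The 31 subunits of the 20S core and 19S cap had small differences between the genotypes. Their log2 differences between iKO and WT ran from -0.06 to 0.09 on chow and from -0.06 to 0.09 on HFD. The 95% intervals of all 31 lay between -0.17 and 0.20 on chow and between -0.19 and 0.20 on HFD. As deposited, differences of a size beyond those bounds are outside the intervals of every core subunit, and smaller ones were not resolved. After scaling the differences of the 31 ran from -0.12 to 0.03 on chow and from -0.135 to 0.01 on HFD. The bounds do not apply to the scaled values. The median over all 48 members was 0.04 on chow and 0.02 on HFD, beside 0.05 and 0.06 over all genes tested. The direction depended on the scaling: 16 of 48 members were below 0 on chow as deposited and 34 after scaling, beside 29.2% and 50.4% of all genes tested. On HFD 13 members were below 0 as deposited and 41 after scaling, beside 25.6% and 49.4% of all genes.

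**Figure D2:**
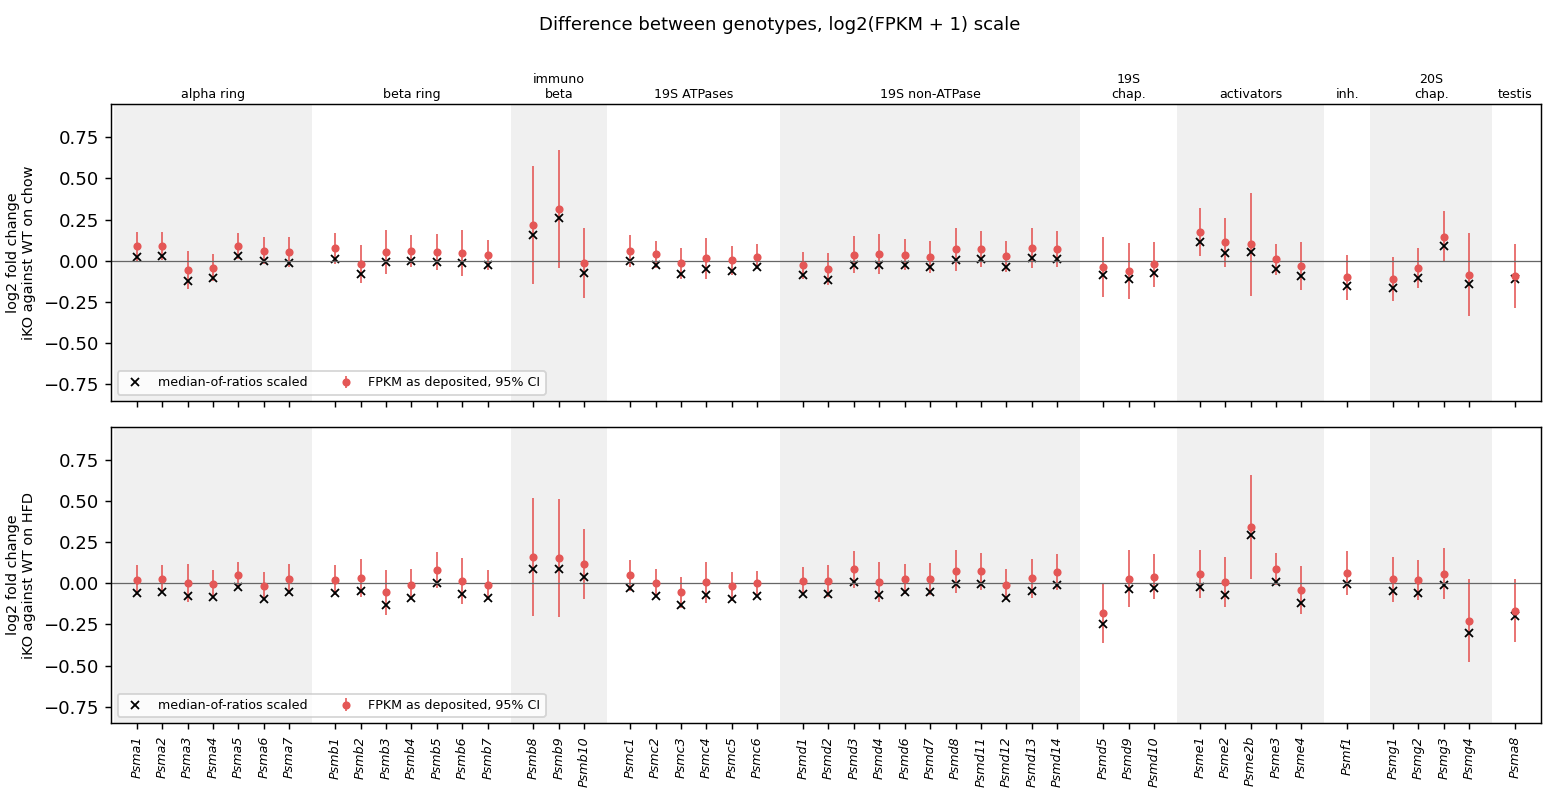
Log2 difference between iKO and WT of each member on chow (top) and on HFD (bottom), as deposited with the 95% interval from limma (dots and bars) and after median-of-ratios scaling (crosses). As deposited the 31 core and cap subunits lie within -0.06 to 0.09 on both diets, and Psmb8, Psmb9 and Psme2b have wide intervals.

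Psme1 had the smallest p on chow among the members. Its levels in WT on chow were 71.7, 72, 67.5, 63.5 and 74.3 FPKM, and in iKO on chow 70.9, 70.5, 77.3, 94.9 and 82.7 FPKM. RT7 was the highest iKO library, and the groups overlapped. The log2 difference was 0.18 ± 0.07 (limma SE), with an adjusted p of 0.276, and without RT7 it was 0.11 (adjusted p = 0.485). On HFD the smallest p belonged to Psme2b, at 1.48 FPKM ± 0.365 in WT and 2.16 ± 0.633 in iKO (SD, n = 5), a log2 difference of 0.34 ± 0.15 with overlapping groups and an adjusted p of 0.299 in limma. Pooled over diets it was Psma5, an alpha subunit, with a log2 difference of 0.07 ± 0.03 and an adjusted p of 0.101 in limma.

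Of the immunoproteasome subunits, Psmb8 and Psmb9 had the largest point estimates on chow and the widest intervals of the 48 members on both diets. Psmb8, the replacement for Psmb5 and known for its chymotrypsin-like site, was at 6.23, 8.33, 6.76, 8.39 and 8.43 FPKM in WT on chow and 8.32, 9.2, 7.27, 14.4 and 7.15 FPKM in iKO on chow. The iKO library RT7 stood above the other 19 libraries, and the other 4 iKO libraries lay within or close to the WT range. RT7 also had the lowest estimated depth, at 12.5 M reads beside a median of 22.5 M over the libraries. The log2 difference was 0.22, with a 95% interval from -0.14 to 0.58 and an adjusted p of 0.59 in limma, and without RT7 it was 0.06. On HFD Psmb8 was at 5.82, 7.37, 5.77, 7.53 and 10 FPKM in WT and 5.93, 9.33, 7.51, 10.6 and 7.97 FPKM in iKO, groups that overlapped almost throughout, and the log2 difference was 0.16.

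Psmb9, the replacement for Psmb6, was at 2.56, 3.65, 3.05, 2.89 and 4.56 FPKM in WT on chow and 3.47, 4.09, 4.28, 7.06 and 3.46 FPKM in iKO on chow. RT7 was again the highest, and the groups overlapped. The log2 difference was 0.32, with a 95% interval from -0.04 to 0.67 and an adjusted p of 0.43 in limma, and without RT7 it was 0.17 (adjusted p = 0.682). On HFD the difference was 0.15. Psmb10, the replacement for Psmb7 and the most abundant of the 3, was at 25.8 ± 1.9 FPKM in WT and 25.8 ± 4.16 in iKO on chow, and at 20.6 ± 3.41 in WT and 22.3 ± 1.86 in iKO on HFD (SD, n = 5). Its log2 differences between genotypes were -0.01 on chow and 0.12 on HFD. The constitutive counterparts differed by 0.05 on chow and 0.08 on HFD for Psmb5, by 0.05 and 0.01 for Psmb6, and by 0.04 and -0.01 for Psmb7. Psme2, the partner of Psme1, differed by 0.11 on chow and 0.01 on HFD.

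A ratio of 2 subunits within a library does not depend on how that library is scaled. The level of Psmb8 was 9.38% ± 1.22 of that of Psmb5 in the WT chow group, 10.9% ± 3 in iKO chow, 9.72% ± 1.77 in WT HFD and 10.5% ± 2.61 in iKO HFD (SD, n = 5). Psmb9 stood at 3.46% ± 0.892, 4.38% ± 1.03, 3.46% ± 0.619 and 3.97% ± 0.906 of Psmb6 in the same order. Psmb10 stood at 29.6% ± 2, 28.7% ± 4.02, 25% ± 3.86 and 27.3% ± 3.05 of Psmb7. The immunoproteasome transcripts were thus a minority beside their counterparts in every group, most so for Psmb9. None of 12 comparisons of these ratios passed an exact two-sided permutation test after Benjamini-Hochberg adjustment over the 12, the smallest adjusted p being 0.857. The lowest unadjusted exact p was 0.0714, for Psmb10 to Psmb7 between diets in WT (a log2 difference of -0.25), and 5 mice against 5 allow 0.00794 at the least.

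**Figure D3:**
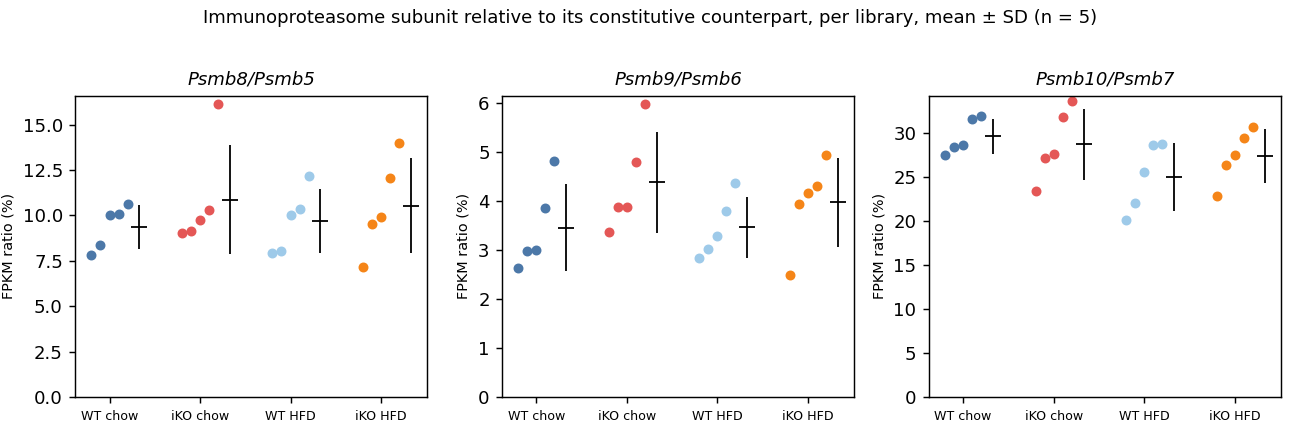
Ratio of each immunoproteasome subunit to the constitutive subunit it replaces, in percent of FPKM, with a point for each library and a line with a bar for the mean and SD of each group of 5 mice. The groups overlap for all 3 ratios, and Psmb10 to Psmb7 is the highest ratio in every group.

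Within groups, the immunoproteasome genes varied together from mouse to mouse. After each value was taken as its deviation from its group mean on the scaled log2 scale, Psmb9 and Psmb10 correlated over the 20 libraries with r = 0.77 and rho = 0.726 (permutation p = 0.00043 and 0.00128, adjusted 0.00269 and 0.00512 over 8 pairs). Without RT7 and RT19, the libraries farthest from the median, r was 0.572 (permutation p = 0.0122). Psmb8 and Psmb9 gave r = 0.791 and rho = 0.698 (permutation p = 0.00101 and 0.00236, adjusted 0.00269 and 0.00629), and r = 0.56 without those 2 libraries (permutation p = 0.0529). Psmb8 and Psmb10 gave r = 0.682 and rho = 0.579 (permutation p = 0.0061 and 0.0175, adjusted 0.00976 and 0.028). Without RT7 and RT19 their r was 0.325 (permutation p = 0.226), so that this relation rests largely on those libraries. The r of Psmb8 and Psmb9 without those libraries was close to that of Psmb9 and Psmb10. Psme1 and Psme2 gave r = 0.62 and rho = 0.462 (permutation p = 0.0329 and 0.0939, adjusted 0.0439 and 0.125), and r = 0.377 without RT4 and RT19 (permutation p = 0.295), so that this relation also rests on 2 libraries. The pairs were chosen after the values had been seen.

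Other genes of MHC class I presentation and leukocyte markers were set beside them. Psmb9 and Tap1, which encodes a subunit of the transporter that carries peptides to MHC class I, gave r = 0.77 and rho = 0.714 (permutation p = 0.00075 and 0.00103, adjusted 0.00269 and 0.00512), and r = 0.562 without RT7 and RT19 (permutation p = 0.0223). Exons of Psmb9 and Tap1 overlap on opposite strands and the use of strand in counting is not given in the sources used here, so part of this relation may be shared reads, which was not tested. The mean of 10 leukocyte markers correlated with Psmb8 (r = 0.633, rho = 0.608, permutation p = 0.00231 and 0.0097, adjusted 0.00462 and 0.0194), and r was 0.623 without RT7 and RT19 (permutation p = 0.00435). For Psmb9 the same relation gave r = 0.373 and rho = 0.202 (permutation p = 0.19 and 0.44, adjusted 0.19 and 0.44), and r = 0.202 without RT7 and RT19 (permutation p = 0.51). For Psmb10 it gave r = 0.33 and rho = 0.217 (permutation p = 0.136 and 0.376, adjusted 0.155 and 0.43), and r = 0.45 without RT14 and RT19 (permutation p = 0.118).

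The summed FPKM of the leukocyte markers (13 gene IDs) ran from 205 to 218 in the WT chow group, 200.4 to 317 in iKO chow, 160 to 183 in WT HFD and 152 to 228 in iKO HFD. RT7, the library with the highest Psmb8 and Psmb9, had the highest sum. The T and B cell markers Cd3e and Cd79a were near 0, at no more than 0.36 and 0.6 FPKM, and Lyz2, Cd74 and C1qa made up most of the sum. The part of leukocytes in the levels of Psmb8 and Psmb9 was not tested beyond these correlations.

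The high-fat diet was accompanied by lower FPKM of proteasome genes, most clearly of the 19S ATPases, and most of these differences were no longer called after scaling. As deposited, 7 of 48 members fell with HFD in WT, or 14.6%, against 7.27% of all genes tested that fell and 0.767% that rose. In iKO 8 members fell, or 16.7%, against 8.36% that fell and 1.65% that rose. Pooled over genotypes 25 members fell, or 52.1%, against 23.3% that fell and 2.55% that rose. No member rose in any of the 3 comparisons by limma at an adjusted p below 0.05, and 20, 23 and 32 members had an unadjusted p below 0.05, beside 25.6%, 25.7% and 38.7% of all genes. Without RT1 and RT4, the libraries that stood apart by atrial genes, 5 members were called in WT, 7 in iKO and 15 pooled. With 1 library left out at a time the counts ran from 3 to 11 in WT, the lowest without RT1 or RT14 and the highest without RT19, from 7 to 14 in iKO and from 19 to 30 pooled. The shares of all genes called in these fits with libraries left out were not set beside the counts. All 48 members were below 0 in the pooled comparison, as were 79.4% of all genes.

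After median-of-ratios scaling 0 of 48 members were called in WT by limma, against 1.17% of all genes tested that fell and 1.39% that rose, with 2 members and 14.8% of all genes at an unadjusted p below 0.05. In iKO 1 was called, or 2.08%, against 1.82% that fell and 2.57% that rose. Pooled over genotypes 2 were called, or 4.17%, against 4.85% that fell and 5.39% that rose, so that the share of members was no larger than that of all genes. The split of all called genes moved as well, from 2973 lower and 326 higher as deposited to 620 lower and 689 higher after scaling. The median over the members moved from -0.10 to -0.01 in WT, from -0.12 to -0.03 in iKO and from -0.11 to -0.01 pooled, and the median over all genes moved from -0.08 to 0 in WT, from -0.07 to 0 in iKO and from -0.08 to 0 pooled. Diet also went with the mitochondrial share given above and with cardiomyocyte markers. Of these, 5 of 8 fell in each genotype as deposited, against 7.27% of all genes tested in WT and 8.36% in iKO. Calls of the markers after scaling were not examined. Chow libraries carry the names RT1 to RT10 and HFD libraries RT11 to RT20, so a difference in handling of these runs, if any, and diet cannot be told apart.

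**Figure D4:**
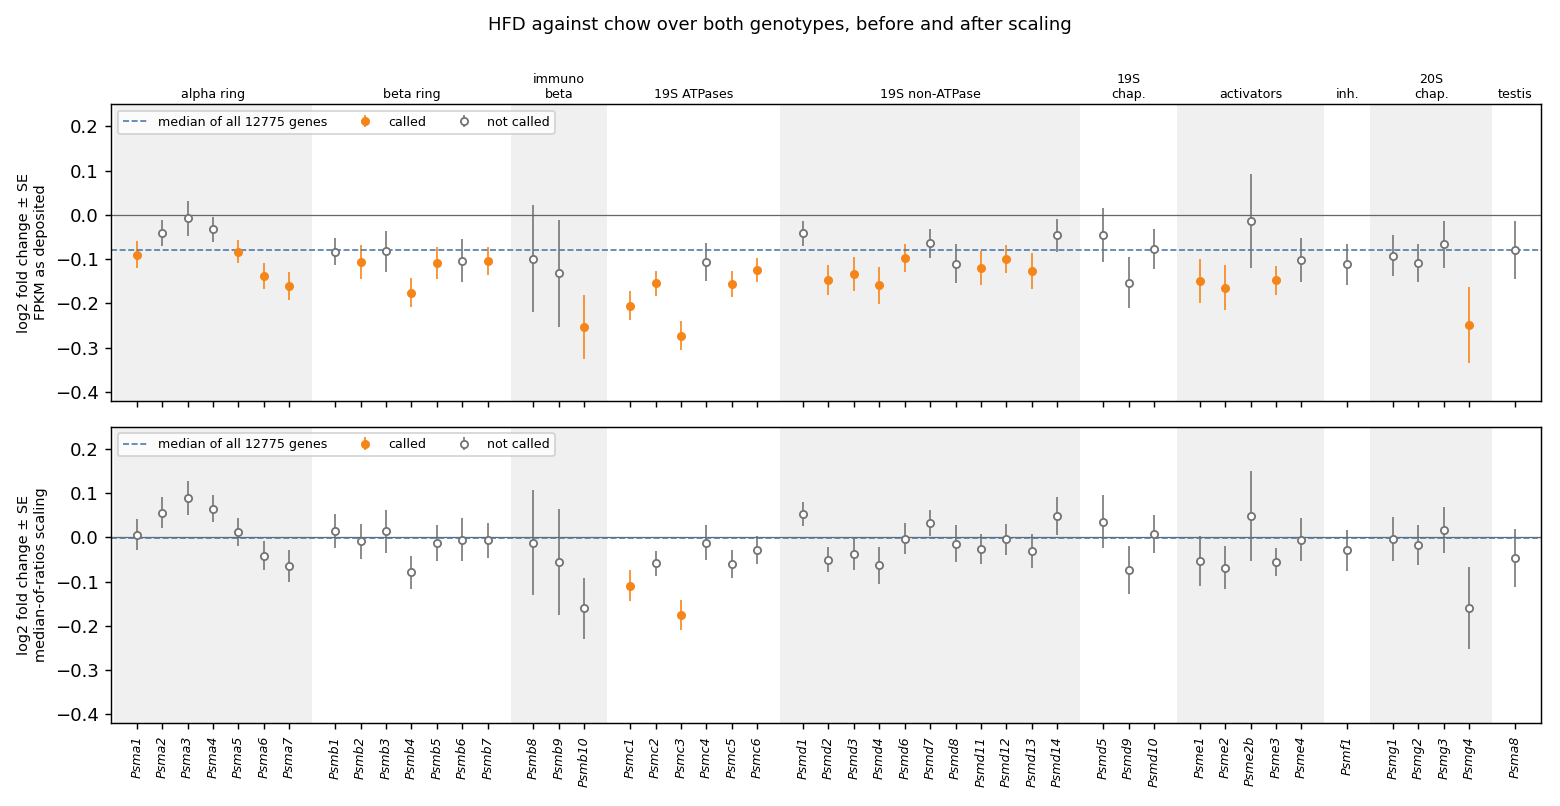
Log2 difference between HFD and chow of each member, pooled over genotypes, as deposited (top) and after median-of-ratios scaling (bottom), with bars for the SE, filled points for called members and a dashed line at the median of all genes tested. As deposited all 48 members lie below 0, and after scaling 34 do, and Psmc3 and Psmc1 are the 2 called.

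The ATPases were the class with the largest share of calls. As deposited, 4 of 6 fell with HFD in WT, 5 of 6 in iKO and 5 of 6 pooled, Psmc4 being the exception in the last 2. Of all genes tested, 7.27%, 8.36% and 23.3% fell in the same comparisons. After scaling 0, 1 and 2 of the 6 were called, against 1.17%, 1.82% and 4.85% of all genes that fell. Psmc3 (chromosome 2, 91054009 to 91066369, plus strand, by Ensembl ID in GENCODE M21 on GRCm38) encodes the ATPase RPT5, whose tail docks into the alpha ring. Its levels were 93.5, 95.5, 96.4, 95.6 and 93.6 FPKM in WT on chow and 77.7, 76.9, 83, 80.5 and 79.6 FPKM in WT on HFD. In iKO they were 95.9, 96, 88.6, 100 and 89.2 FPKM on chow and 73.6, 70.1, 81.7, 75.2 and 82.5 FPKM on HFD. All 10 HFD libraries lay below all 10 chow libraries. Psmc3 fell by 0.25 on the log2 scale in WT (SE 0.05, adjusted p = 0.00198, limma), by 0.29 in iKO (SE 0.05, adjusted p = 0.000262) and by 0.27 pooled (SE 0.03, adjusted p = 4.13e-06).

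Psmc3 was the member that was still called in iKO after scaling. Scaled levels ran over 89.6 to 97.4 in WT on chow and 80.8 to 88.9 in WT on HFD, and over 84.2 to 92.4 in iKO on chow and 69.5 to 84.3 in iKO on HFD. The WT groups stayed apart and the iKO groups overlapped at their edges. It then fell by 0.20 in iKO (adjusted p = 0.0156, limma) and by 0.18 pooled (adjusted p = 0.00156), and in WT the difference was -0.15 (adjusted p = 0.112). Psmc3 was also set against the median, in the same library, of the 34 other members with a median of at least 20 FPKM. These were not matched to it in level. The log2 ratio was 0.67 to 0.76 in the WT chow group, 0.56 to 0.65 in WT HFD, 0.63 to 0.76 in iKO chow and 0.41 to 0.65 in iKO HFD. Exons of Psmc3 overlap those of Slc39a13 on the opposite strand, so that reads of both genes cannot be told apart where they meet.

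Psmc1 encodes the ATPase RPT2, which helps to open the gate of the core. Its levels were 57.4, 52.9, 58.5, 61.4 and 57.5 FPKM in WT on chow and 49.1, 47, 50.5, 50.8 and 52.5 FPKM in WT on HFD. In iKO they were 62.4, 63.3, 57.4, 61.1 and 56.1 FPKM on chow and 50.1, 49.1, 52.7, 54 and 52.6 FPKM on HFD. The diets did not overlap in either genotype. Psmc1 fell by 0.20 in WT (SE 0.05, adjusted p = 0.0111, limma), by 0.21 in iKO (SE 0.05, adjusted p = 0.00571) and by 0.21 pooled (SE 0.03, adjusted p = 0.000123). After scaling the pooled difference was -0.11 (adjusted p = 0.0481), and the differences within a genotype were -0.09 in WT and -0.12 in iKO, neither of them called.

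Psmc2 (RPT1), Psmc5 (RPT6) and Psmc6 (RPT4) complete the ATPases that were called as deposited. Psmc2 was at 37.4 ± 1.09 FPKM on chow and 34 ± 1.18 on HFD in WT, and at 38.5 ± 1.61 and 34.1 ± 1.1 in iKO (SD, n = 5). It fell by 0.14 in WT and 0.17 in iKO. Psmc5 was at 47.1 ± 1.22 and 42.5 ± 1.29 FPKM in WT and at 47.2 ± 2.73 and 41.9 ± 1.62 in iKO, and fell by 0.15 and 0.17. Psmc6 was at 58.8 ± 1.65 and 54.3 ± 1.45 FPKM in WT and at 59.8 ± 2.11 and 54.3 ± 1.8 in iKO. Psmc6 fell by 0.14 in iKO (adjusted p = 0.0222, limma), and in WT its difference was -0.11 (adjusted p = 0.0659). None of these 3 was called after scaling. In WT the calls of Psmc2 and Psmc5 were each lost in 8 of 20 fits that left out 1 library, at adjusted p-values up to 0.103 and 0.0889, both of them without RT1, RT3, RT10, RT12, RT14, RT16 or RT18, and without RT5 for Psmc2 or RT8 for Psmc5. In iKO the call of Psmc6 was lost without RT4, RT11 or RT20, at adjusted p-values up to 0.0652.

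In the 20S core the diet calls were fewer. Of the 14 alpha and constitutive beta subunits, Psma7 fell in WT by 0.15, from 76.5 ± 3.19 to 69 ± 3.35 FPKM, and in iKO by 0.17, from 79.4 ± 3.56 to 70.3 ± 2.73 FPKM. The call of Psma7 in WT was lost without RT1, RT3, RT8, RT10, RT12, RT14, RT16 or RT18, at adjusted p-values up to 0.111 in limma. Psma6 fell in iKO by 0.18 (adjusted p = 0.00706, limma), from 92 ± 3.41 to 81.3 ± 3.33 FPKM, and in WT its difference was -0.10 (adjusted p = 0.122). Psmb4, a beta subunit without a cutting site, fell in iKO by 0.21 (adjusted p = 0.00576, limma), from 83.7 ± 4.28 to 72.2 ± 3.11 FPKM. Pooled over genotypes 4 of 7 alpha and 4 of 7 constitutive beta subunits fell, against 23.3% of all genes tested. After scaling none of the 14 was called. Psmb5, which carries the chymotrypsin-like site, differed between diets by -0.12 in WT and -0.09 in iKO, Psmb6 by -0.08 and -0.12 and Psmb7 by -0.08 and -0.13, none called within a genotype.

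Among the non-ATPase subunits of the cap only Psmd2 was called within a genotype. Psmd2, a scaffold that receives ubiquitin shuttle proteins, fell with HFD in WT by 0.18 (adjusted p = 0.0219, limma), from 64.1 ± 1.74 to 56.5 ± 1.97 FPKM (SD, n = 5), with no overlap. This call was lost without RT1, RT8 or RT14, at adjusted p-values up to 0.0553. In iKO it was at 61.9 ± 4.53 FPKM on chow and 57.1 ± 2.56 on HFD. Pooled over genotypes 7 of 11 fell as deposited, against 23.3% of all genes tested, and 0 were called after scaling. Of the chaperones, only Psmg4 fell in the pooled comparison, by 0.25 (adjusted p = 0.037, limma), and after scaling its difference was -0.16. The call of Psmg4 was kept in 7 of 20 fits that left out 1 library, with adjusted p-values up to 0.0702 (lost without RT1, RT2, RT4, RT5, RT6, RT9, RT10, RT13, RT14, RT15, RT16, RT18 or RT20).

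Among the activators Psme3, the subunit of the nuclear PA28 gamma cap, fell in WT. It was at 21.4, 20.5, 19.4, 20.4 and 19.7 FPKM in WT on chow and 17, 18.5, 17.7, 18.8 and 16.6 FPKM in WT on HFD, with no overlap, and fell by 0.19 (SE 0.05, adjusted p = 0.0148, limma). In iKO its difference was -0.11 (adjusted p = 0.131). Psme1 differed between diets by -0.09 in WT and -0.21 in iKO, and Psme2 by -0.11 and -0.22, none called within a genotype. Pooled over genotypes both fell, by 0.15 and 0.16, and neither was called after scaling. The call of Psme1 was lost without RT1, RT3, RT7, RT10, RT14, RT16 or RT18, at adjusted p-values up to 0.061.

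Of the immunoproteasome subunits, only Psmb10 was called between diets, and only in the pooled comparison as deposited. Psmb10 was at 23.9, 25.7, 23.9, 27.9 and 27.5 FPKM in WT on chow and 18.5, 16.5, 22.8, 20.3 and 25.1 FPKM in WT on HFD. RT19 lay inside the chow range, and the difference of -0.32 had an adjusted p of 0.0569 in limma. In iKO Psmb10 was at 23.9, 28.8, 23.2, 31.4 and 21.5 FPKM on chow and 19, 22.9, 23.4, 23 and 23.2 FPKM on HFD, groups that overlapped, with a difference of -0.19. Pooled over genotypes it fell by 0.25 (SE 0.07, adjusted p = 0.0139, limma), and after scaling the difference was -0.16 (adjusted p = 0.16). Psmb8 differed by -0.07 in WT and -0.13 in iKO and Psmb9 by -0.05 and -0.21, none called. The difference between Psmb10 and the other 2 was not tested apart from the ratios above.

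No member showed a diet difference that depended on genotype. In the interaction of genotype and diet 0 of 48 members were called, against 0.0313% of all genes tested (limma), and 0 had an unadjusted p below 0.05, beside 3.76% of all genes. The smallest p belonged to Psmf1, at 6.15 ± 0.47 and 5.26 ± 0.47 FPKM on chow and HFD in WT and at 5.67 ± 0.486 and 5.53 ± 0.323 in iKO (SD, n = 5). Its interaction was 0.16, with a 95% interval from -0.03 to 0.35. Among the 31 core and cap subunits the interaction ran from -0.11 to 0.07, with 95% intervals between -0.30 and 0.22, so that interactions of moderate size were not resolved. Psmb8, Psmb9 and Psmb10 had interactions of -0.06, -0.16 and 0.13.

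Other genes of the pathway were examined from lists made by role. The list of 22 tested partners and regulators of the proteasome held Nfe2l1, the NRF1 transcription factor, which rose with HFD while the proteasome genes did not. It was at 116, 123, 115, 113 and 116 FPKM in WT on chow and 136, 128, 136, 136 and 124 FPKM in WT on HFD. In iKO it was at 97.8, 105, 96.4, 110 and 106 FPKM on chow and 135, 129, 130, 124 and 137 FPKM on HFD. Every HFD library lay above every chow library, and every iKO chow library lay below every WT chow library. Nfe2l1 rose by 0.17 in WT (SE 0.04, adjusted p = 0.017, limma), by 0.35 in iKO (adjusted p = 2.25e-05) and by 0.26 pooled (adjusted p = 4.29e-06). After scaling the pooled rise was 0.36 (adjusted p = 2.33e-07).

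On chow Nfe2l1 was lower in iKO than in WT by 0.18 on the log2 scale (adjusted p = 0.0467, limma), and after scaling by 0.24 (adjusted p = 0.00721). As deposited this call was lost in 14 of 20 fits that left out 1 library, with adjusted p-values up to 0.145, and in iKO on HFD the difference was -0.01 (adjusted p = 0.94). The interaction was 0.17, with an adjusted p of 0.999 in limma, so the genotype difference is not shown to depend on diet. Nfe2l2, the related factor NRF2, was at 24.9 ± 1.31 and 24.3 ± 1.21 FPKM in WT on chow and HFD and at 28.4 ± 2.34 and 27 ± 2.45 in iKO (SD, n = 5), higher in iKO by 0.16 pooled over diets (adjusted p = 0.0335, limma), a call that scaling removed and that was lost in 10 of 20 fits that left out 1 library, at adjusted p-values up to 0.0645.

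**Figure D5:**
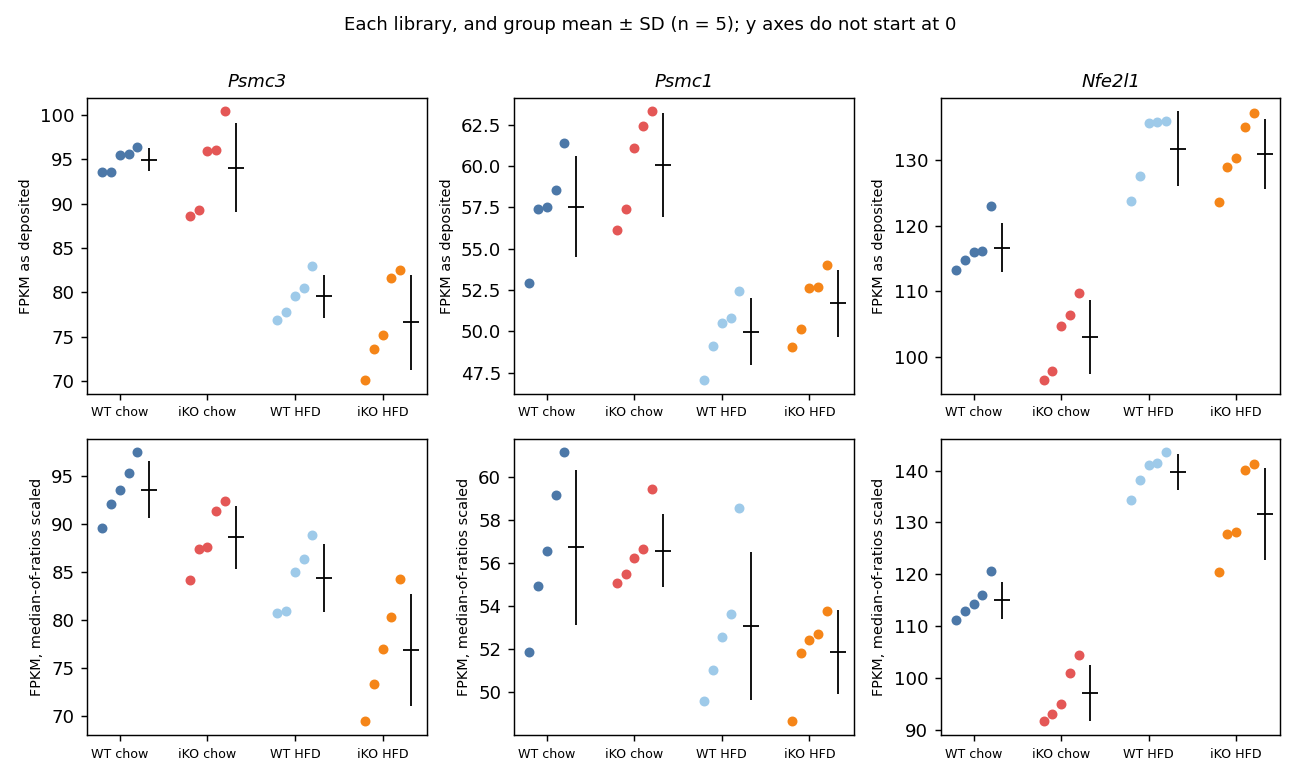
FPKM of Psmc3, Psmc1 and Nfe2l1 in each of 20 libraries, as deposited (top) and after median-of-ratios scaling (bottom), with a line and bar for the mean and SD of each group of 5 mice, on axes that do not start at 0. Both ATPases are lower on HFD than on chow in each genotype as deposited, and Nfe2l1 is higher on HFD in both rows of panels.

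Of the 22 partners and regulators, 6 fell with HFD pooled over genotypes, against 23.3% of all genes tested, and 1, Nfe2l1, rose. After scaling 0 fell and Nfe2l1 rose. Pomp, which assembles the core, fell by 0.20 (adjusted p = 0.00258, limma), and so did Bag6, which delivers faulty proteins, by 0.20 (adjusted p = 0.000831). Shfm1, the small cap subunit also named Sem1, fell by 0.15 (adjusted p = 0.00538). Within a genotype Bag6 and Pomp fell in WT, by 0.25 and 0.20, and Shfm1 fell in iKO by 0.21. The call of Pomp in WT was kept in 8 of 20 fits that left out 1 library, with adjusted p-values up to 0.114. Between genotypes pooled over diets, 2 of the 22 were called higher in iKO and 0 lower as deposited, against 4.01% and 1.16% of all genes tested. After scaling 0 were called higher and 2 lower, against 0.767% and 2.39%.

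Genes of ubiquitin itself and its activation were examined as well. Rps27a, which encodes ubiquitin fused to a ribosomal protein, was higher in iKO by 0.15 pooled over diets (adjusted p = 0.0295, limma) and fell with HFD by 0.11 (adjusted p = 0.0484), and Uba1, the ubiquitin-activating enzyme, fell with HFD by 0.11 (adjusted p = 0.0133), calls that scaling removed. With 1 library left out, the genotype call of Rps27a was kept in 12 of 20 fits and its diet call in 5 of 20, with adjusted p-values up to 0.0599 and 0.0983.

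Among 12 ubiquitin ligases of muscle, Fbxo32, known as atrogin-1, rose with HFD in iKO by 0.29 (adjusted p = 0.0196, limma). It was at 25.6, 22.3, 25.7, 28.4 and 26.5 FPKM in iKO on chow and 29.8, 29.3, 33.6, 35.4 and 30.4 FPKM in iKO on HFD, with no overlap. In WT it was at 22.2, 25.2, 24.4, 27.1 and 20.5 FPKM on chow and 28.9, 29.6, 26.3, 30.5 and 23.9 FPKM on HFD, overlapping groups with a difference of 0.21 (adjusted p = 0.0885). The call in iKO was lost without RT4 or without RT17, at adjusted p-values up to 0.0628. Pooled over genotypes Fbxo32 rose by 0.25 (adjusted p = 0.0022, limma), a call kept in all 20 fits that left out 1 library. After scaling Fbxo32 was called in iKO (adjusted p = 0.00779, limma) and pooled (adjusted p = 0.000346). In WT 1 of the 12 ligases was called higher after scaling, against 1.39% of all genes tested. Trim63, known as MuRF1, differed by -0.05 in WT and -0.10 in iKO, neither called. Trim54 and Trim55, its relatives at the sarcomere, fell pooled over genotypes by 0.17 and 0.21 (adjusted p = 0.00373 and 0.0167), and neither was called after scaling.

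Of 15 genes of MHC class I presentation, Calr, which encodes the chaperone calreticulin, fell with HFD. It was at 110, 108, 111, 95.9 and 99.5 FPKM in WT on chow and 83.7, 81.1, 87.9, 78.6 and 80.4 FPKM in WT on HFD, with no overlap, and fell by 0.35 (adjusted p = 0.00215, limma) and after scaling by 0.24 (adjusted p = 0.011). In iKO it fell by 0.25 (adjusted p = 0.0157), a call lost without RT4 (adjusted p = 0.0507) and after scaling (adjusted p = 0.0873). Tap2 and Pdia3 fell pooled over genotypes by 0.20 and 0.19, and were not called after scaling. The call of Pdia3 was lost without RT1, RT11 or RT20, at adjusted p-values up to 0.0548. Between genotypes pooled over diets, 2 of the 15 were called higher in iKO and 0 lower as deposited, against 4.01% and 1.16% of all genes tested. After scaling 1 was called higher and 2 lower, against 0.767% and 2.39%. Irf1, a transcription factor that activates Psmb9 and Tap1, was higher in iKO by 0.26 pooled over diets (adjusted p = 0.00677, limma) and by 0.19 after scaling (adjusted p = 0.0292). Tap1 itself differed between genotypes by 0.17 on chow and 0.18 on HFD, neither called, and Tapbp was higher in iKO by 0.21 pooled over diets (adjusted p = 0.0451), a call that scaling removed and that was kept in 5 of 20 fits that left out 1 library, with adjusted p-values up to 0.0909.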

How the data were processed

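Poly(A) libraries of 20 left ventricles were sequenced as 100 nt single-end reads, per the labels' protocols. The authors deposited FPKM per gene. Bowtie2, RSEM, DESeq2 and the build mm9 are named in the submitters' processing notes, without versions. Of the members' Ensembl IDs 33 of 48 have the same version in GENCODE M21 on GRCm38, whose coordinates are given, and 14 share exons with another gene. The labels describe 5 mice per group as separate animals.

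Tests used log2(FPKM + 1), on which changes of low genes are understated. Limma 3.58.1 (R 4.3.3, trend and robust moderation) was fitted to all genes and libraries with 4 group means and was tested on simulated data. The 7 comparisons share samples. Python 3.11.15, pandas 2.3.3, numpy 2.4.6, scipy 1.17.1 and matplotlib 3.10.9 served the rest. Size factors used 14760 genes above 0 in every library.

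The members, lists and tests were chosen with earlier results of these data known. Values were given for members called, at most 10 by smallest p per direction, for Psmb5 to Psmb10, Psme1 and Psme2, for the smallest p where none was called, and for at most 4 called genes per other list. Correlations were permuted 100000 times within groups. Alternatives were scaling, pseudocount 0.1, no filter, other moderation, quality weights and libraries left out.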

Additional observations from a re-analysis of the deposited data

Results flagged for a closer look

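In each group of 5 mice the highest and the lowest library of each member were compared with the rest of the group. Of 192 groups, 10 had a library whose gap to its nearest neighbour exceeded 0.71 of the group's range, which is 5.21%, where chance gives about 5%.

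RT7, an iKO library on chow, was involved in 3 of them: it was the highest of its group for the immunoproteasome subunits Psmb8 (14.4 FPKM, the next at 9.2) and Psmb9 (7.06, the next at 4.28), and the lowest for the core chaperone Psmg4 (8.36, the next at 10.3). RT19, a WT library on HFD, was the highest of its group for the alpha subunits Psma1 (71.9 FPKM, the next at 67) and Psma6 (88.5, the next at 81.8). Psma4 was highest in RT15, iKO on HFD, at 78.1 FPKM. Psmb10 was lowest in RT11, iKO on HFD, at 19 FPKM, with the next at 22.9. Psmc2 was lowest in RT14, WT on HFD, at 32 FPKM. The low gene Psme2b was highest in RT10 among WT on chow, at 2.56 FPKM, and in RT4 among iKO on chow, at 3.07 FPKM.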

How the results depend on the processing

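The counts of 0 members for genotype on chow, on HFD and pooled, for the interaction, and for the 12 ratios were 0 under every alternative run, with each library left out in turn included. The diet counts depended on the scaling and on the libraries. In WT, 7 members were called, and 0 after median-of-ratios scaling, 4 without the filter on low values, 4 without trend and robust moderation and 18 with quality weights. Leaving out 1 library gave 3 to 11: 3 without RT1 or RT14, 4 without RT3, RT8, RT12, RT16 or RT18, and 11 without RT19. In iKO, 8 were called, 1 after scaling, and 7 to 14 with 1 library left out (13 without RT6, 14 without RT19, which is a WT library that shares the estimate of the spread). Pooled over genotypes, 25 were called, 2 after scaling, 15 without RT1 and RT4, and 19 to 30 with 1 library left out. The share of all genes called was not set beside the counts without the filter, with other moderation or weights, or with libraries left out. Those counts therefore do not separate a shift in the proteasome genes from one in all genes. The cause of these shifts was not tested. Of the calls in WT, those of Psmc1, Psmc3 and Psme3 held in all 20 such fits, those of Psma7, Psmc2 and Psmc5 in 12 and that of Psmd2 in 17. In iKO, Psmc6 lost its call without RT4, RT11 or RT20, and the other 7 held in all 20. Scaling changed the sign of the pooled diet differences of Psma1 and Psma5, which were called as deposited. They moved from -0.0905 to 0.0061 and from -0.0832 to 0.0122, and neither was called after scaling. No paired analysis was possible because the groups share no replicate numbers. With 5 mice per group and estimated depths down to 12.5 M reads, the genotype intervals were widest for Psmb8, Psmb9 and Psme2b.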
